A study of Mus musculus with 48 samples.

Results

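Mouse insulinoma cells of the line βTC3 were grown for 24 h with activin B at 50 ng/ml and compared with untreated cells of the same batch by strand-specific sequencing of polyA RNA. The libraries were taken by their labels (line, plasmid, batch and treatment), 3 with activin B and 3 without, so that 6 of the 48 libraries of the series entered the comparison. Both groups were βTC3 cells that carried the doxycycline-inducible plasmid PB-33 with no receptor named in it (vector cells), received no doxycycline (0 h) and belonged to batch 2. The wider series looked for genes that answer to signalling by ALK7 (gene Acvr1c), a type I activin receptor, in a pair of mouse pancreatic neuroendocrine tumour lines, βTC3 and AJ-5257-1 (AJ below). Beyond this comparison, 2 contrasts are used here only where the βTC3 response is set beside them. One is AJ vector cells of batch 2 with and without the same dose of activin B for 24 h, again at 0 h of doxycycline. The other is βTC3 cells of batch 1 carrying PB-33 with constitutively active ALK7 (ALK7-CA) against vector cells, both after 24 h of doxycycline at 2 µg/ml. Each group had 3 libraries.

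Activin B is a dimer of inhibin beta B subunits and a ligand of the TGF-β family. It is bound by the activin type II receptors, which recruit and phosphorylate a type I receptor, ALK4 or ALK7. The type I kinase phosphorylates SMAD2 and SMAD3, which join SMAD4, enter the nucleus and bind DNA together with other factors. Short copies of the sequence CAGAC are bound by the DNA-binding domain of SMAD3 and SMAD4. Targets of the pathway include its own brakes, such as the inhibitory SMAD7. In pancreatic beta cells activins and their receptors are known as regulators of islet development and of insulin secretion, and ALK7 is expressed in islets.

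The promoter windows below belong to some of the genes on which the results turn, and show how far the SMAD sequence is or is not present at their starts. They are RefSeq windows (GRCm38.p6) from 250 bases before to 50 bases after a transcription start, printed 5′ to 3′ along the transcribed strand, with CAGAC and its reverse complement GTCTG in capitals. Bmf, Tph1, Lamb1 and Fam210b rose with activin B and Pdyn fell.
Bmf (3 windows in the table, this one chr2:118544538-118544837, minus strand): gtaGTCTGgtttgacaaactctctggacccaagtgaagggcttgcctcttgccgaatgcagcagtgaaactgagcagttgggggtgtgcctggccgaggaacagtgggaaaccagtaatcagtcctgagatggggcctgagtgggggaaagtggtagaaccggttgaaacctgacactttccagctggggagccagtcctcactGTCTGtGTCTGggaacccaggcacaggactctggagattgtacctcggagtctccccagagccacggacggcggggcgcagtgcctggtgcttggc
Tph1 (2 windows, this one chr7:46667328-46667627, minus strand): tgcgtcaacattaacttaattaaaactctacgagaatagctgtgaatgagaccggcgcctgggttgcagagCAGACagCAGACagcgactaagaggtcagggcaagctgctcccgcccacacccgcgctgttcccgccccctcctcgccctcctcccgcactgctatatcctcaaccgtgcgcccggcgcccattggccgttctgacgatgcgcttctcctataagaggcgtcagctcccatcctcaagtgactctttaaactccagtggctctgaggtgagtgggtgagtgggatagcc
Lamb1 (chr12:31265043-31265342, plus strand): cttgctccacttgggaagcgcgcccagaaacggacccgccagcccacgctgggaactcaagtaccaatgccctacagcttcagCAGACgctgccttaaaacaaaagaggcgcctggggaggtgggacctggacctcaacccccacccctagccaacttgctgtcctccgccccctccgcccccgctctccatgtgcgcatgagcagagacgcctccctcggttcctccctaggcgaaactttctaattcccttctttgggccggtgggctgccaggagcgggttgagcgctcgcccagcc
Fam210b (chr2:172345327-172345626, plus strand): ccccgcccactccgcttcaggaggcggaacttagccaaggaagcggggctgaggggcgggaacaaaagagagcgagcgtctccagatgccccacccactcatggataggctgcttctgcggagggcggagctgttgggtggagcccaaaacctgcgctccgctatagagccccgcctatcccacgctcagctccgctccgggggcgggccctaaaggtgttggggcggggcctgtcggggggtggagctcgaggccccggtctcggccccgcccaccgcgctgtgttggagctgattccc
Pdyn (2 windows, this one chr2:129699889-129700188, minus strand): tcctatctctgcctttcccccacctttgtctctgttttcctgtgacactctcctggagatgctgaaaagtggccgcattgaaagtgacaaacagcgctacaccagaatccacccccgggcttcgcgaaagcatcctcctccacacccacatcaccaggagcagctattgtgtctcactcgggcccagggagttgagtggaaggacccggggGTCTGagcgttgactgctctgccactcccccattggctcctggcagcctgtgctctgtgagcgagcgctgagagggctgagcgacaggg
The windows held 3, 2, 1, 0 and 1 copies in the order printed. Where a gene had several windows, the one with the most copies is printed. The other windows of Bmf held 0, that of Tph1 1 and that of Pdyn 0. Prr5l, the largest rise named below, is not printed and held 0 in each of its 3 windows. CAGAC was in 6 of 11 windows of the 12 largest rises and 4 of 14 of the 12 largest falls. Of the genes that rose 2-fold or more, 163 of 248 matched the RefSeq table and 115 of their 207 windows (55.6%) held CAGAC on either strand. For the genes that fell 2-fold or more, 120 of 157 matched and 67 of 162 windows (41.4%) held it. Among all tested genes 6329 of 13412 windows (47.2%) held it, and 49.6% of all RefSeq windows did. A second motif bound by SMADs, GGCGC, searched on both strands, was in 46.4% of the windows of the 2-fold rises, 36.4% of those of the 2-fold falls and 62.6% of those of all tested genes. A match describes the letters only.

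Depth was similar in both groups. The untreated libraries held 24.99, 19.84 and 21.57 M counts and the activin B libraries 25.27, 23.29 and 19.52 M, within a range of 17.98 to 38.85 M over the series. Replicates differed by more than counting noise, with a chi-square per gene from 6.34 to 12.3 between libraries of a group, and the first principal component (49.8% of the variance) separated the groups. Cells were plated in triplicate, and nothing says that the replicates came from separate cultures. What a p-value reflects is the spread of these 6 libraries, which may be technical. The beta cell markers summed to 29750 to 30620 CPM (counts scaled by library size) in untreated libraries and 23830 to 24360 with activin B, mostly insulin. Alpha cell markers summed to 294.8 to 299 against 170.7 to 188.5 CPM. Duct markers summed to 10.68 to 11.04 against 29.6 to 33.14 CPM, with 1 of 5, Krt7, higher and Krt19 at 0. The acinar, endothelial, fibroblast and leukocyte lists each summed to under 3 CPM in every library, with Prss1, Cpa1, Amy2a5, Col3a1, Lum, Adgre1 and Cd3e among the markers at 0.

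Below, levels are in CPM of the scaled library total, given for replicates 1, 2 and 3 in that order, or as mean ± SD with n = 3. Changes are log2 fold changes of activin B over untreated with their standard error (SE). A gene rose or fell where the Benjamini-Hochberg adjusted p of edgeR's quasi-likelihood test over all tested genes was under 0.05. In all, 3210 of 14429 tested genes passed, which is 22.2%, with 1771 higher (12.3%) and 1439 lower (9.97%). The share of a gene list that passed, given with its counts below, is to be read beside this 22.2%. The median log2 change of all tested genes was 0.0049. Most changes were small: 70.5% of the genes that passed changed by less than 1.5-fold, 405 (2.81%) by 2-fold or more and 79 by 4-fold or more. Of the 405, 248 rose (1.72% of tested genes) and 157 fell (1.09%). For 38.7% of tested genes every library of one group stood above every library of the other. Both counts depended on single libraries. With 1 library left out the rises went down to 1227, while 947 genes fell without activin B replicate 1 and 958 without untreated replicate 1.

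**Figure D1:**
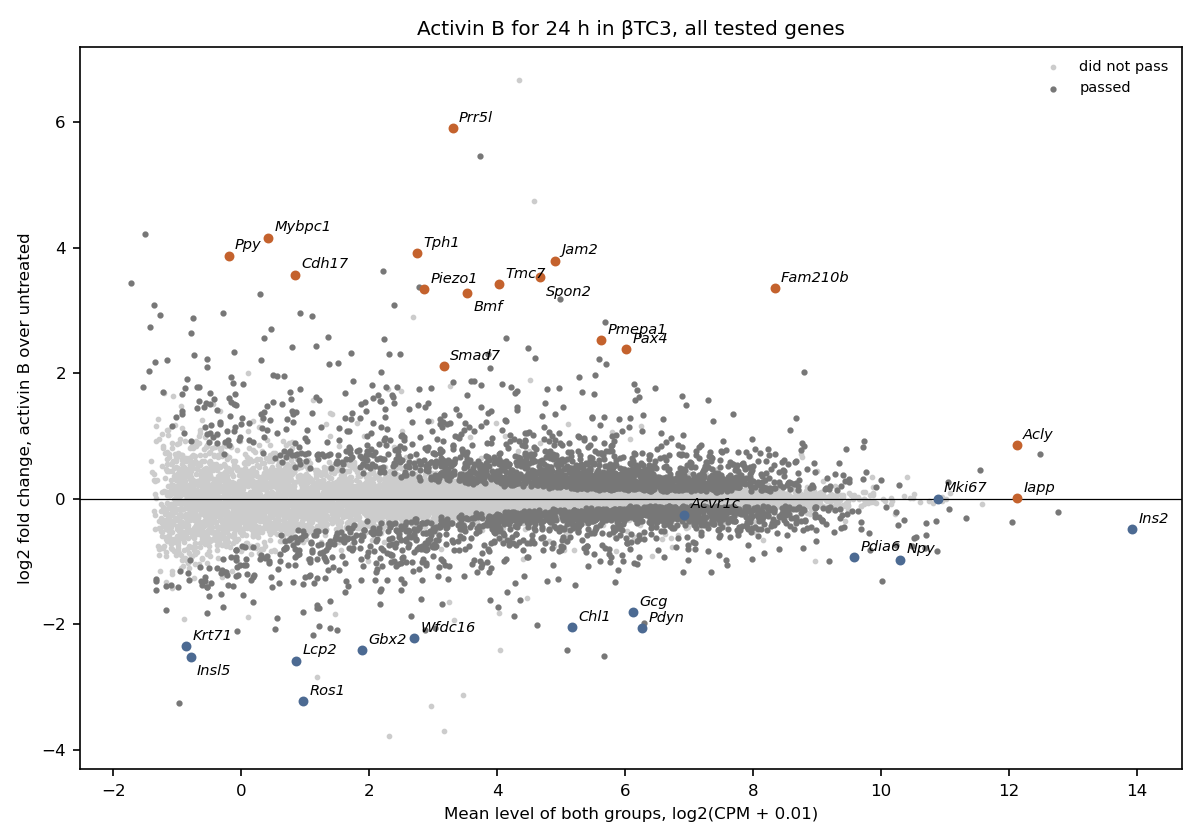
Log2 fold change of activin B over untreated βTC3 cells (y axis) against the mean level of both groups on a log2 scale (x axis), with 1 point per tested gene, dark where the adjusted p was under 0.05. Prr5l stands highest among the named genes at 5.91, Ros1 lowest at −3.23, Iapp and Mki67 lie at 0, and Fam210b, at 3.36, has the smallest adjusted p of the named genes.

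Most measured members of the list of SMAD2/3 targets and feedback genes rose. Of these 19 members, 11 rose (57.9%, beside 12.3% of all tested genes), 0 fell and 8 did not pass. Their median log2 change was 0.48 beside 0.0049 for all tested genes (with the replicate number as a block 1 fell). The other 14 genes of the list were too low to test. Smad7, the inhibitory SMAD that blocks the type I receptor, read 3.19, 4.06 and 2.85 CPM in untreated cells and 15.6, 14.6 and 13.4 CPM with activin B. Every treated library stood above every untreated one, a rise of 4.33-fold (log2 change 2.12, SE 0.135, adjusted p = 2.68e-05). Skil, which encodes the SMAD corepressor SnoN, read 30.9, 34.1 and 28.2 CPM untreated and 114, 112 and 104 CPM treated. This was a rise of 3.54-fold (log2 change 1.83, SE 0.0725, adjusted p = 2.57e-06), again without overlap. Pmepa1, a membrane protein that sequesters SMAD2 and SMAD3, rose 5.74-fold from 15.7, 14.96 and 13.1 CPM to 89.5, 79.5 and 82.5 CPM. Ldlrad4, a relative of Pmepa1 with the same role, rose 3.64-fold from 5.202 ± 0.1099 to 18.98 ± 0.553 CPM. Bambi, a decoy receptor that lacks a kinase domain, had closely matched libraries, with 36.9, 36.2 and 36.6 CPM untreated and 107, 116 and 113 CPM treated, and rose 3.06-fold. Sox4, a transcription factor gene that TGF-β induces, rose 1.79-fold from 39.1 ± 1.36 to 70.04 ± 6.22 CPM. Adjusted p for these 4 genes ran from 5.13e-07 for Bambi to 0.000101 for Sox4.

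Untreated cells of this batch did not match vector cells of batch 1 for every one of these genes. On a scale common to the 21 βTC3 libraries, Smad7 stood at 7.86 to 9.695 CPM in the 9 vector libraries of batch 1 and at 3.52 ± 0.682 CPM in the untreated libraries of batch 2. The activin B libraries stood at 15.2 ± 1.20 CPM, above both. Bambi and Pmepa1 stood at 36.6 to 48.8 and 11.97 to 18.8 CPM in batch 1, close to the untreated libraries here. Of the 248 genes that rose 2-fold or more, 196 stood in every activin B library above all 12 vector libraries without activin B, and of the 157 that fell 2-fold or more, 112 stood below all 12. In the 3 vector libraries of batch 1 at 0 h of doxycycline, which match the untreated cells here in plasmid and doxycycline, Smad7 stood at 8.73 ± 0.544 CPM, so the gap between batches was there without doxycycline.

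**Figure D2:**
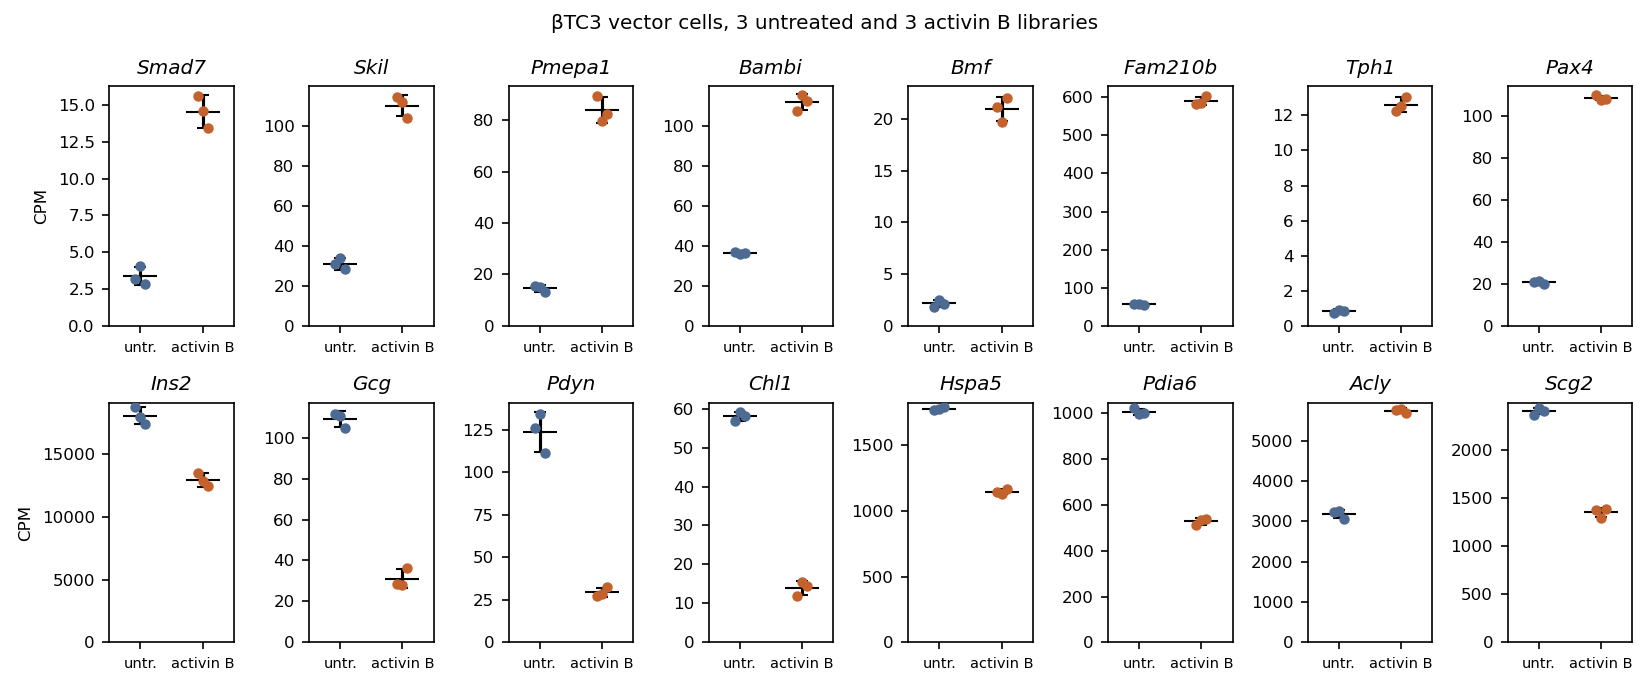
CPM (y axis, from 0) of 16 genes in the 3 untreated and 3 activin B libraries, with points for libraries and black marks for the mean and SD. The groups are apart in every panel, and the spread within a group is small beside the distance between groups.

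Among the receptors through which activin B acts, 1 passed, by a small amount. Acvr1c (ALK7; ENSMUSG00000026834, GRCm38 chromosome 2, 58267453 to 58357895, minus strand) read 135, 139 and 122 CPM untreated and 115, 116 and 100.4 CPM treated, a 1.195-fold fall (log2 change −0.26, SE 0.0694, adjusted p = 0.0329). This call was lost without untreated replicate 1 (log2 change −0.24) or 2 (−0.22), without activin B replicate 1 (−0.29) or 3 (−0.19), and in a fit of all 21 βTC3 libraries (adjusted p = 0.112). Acvr1b (ALK4) read 24.9 ± 1.95 and 29.5 ± 1.73 CPM and did not pass (adjusted p = 0.0571). The type II receptor genes Acvr2a (50.8 ± 2.69 and 51.5 ± 1.38 CPM) and Acvr2b (1.33 ± 0.287 and 1.22 ± 0.187 CPM) did not pass either (adjusted p = 0.823 and 0.814). Levels of different genes are compared only per kilobase (kb) of exon. On that scale untreated cells held 14.9 ± 1.13 CPM per kb of Acvr1c, 5.90 ± 0.478 of Acvr1b, 9.34 ± 0.583 of Acvr2a and 0.356 ± 0.0781 of Acvr2b. Acvr1c thus stood above Acvr1b and Acvr2a above Acvr2b, each by more than the spread of the libraries. In the whole receptor list 4 of 12 measured members rose, 1 fell and 7 did not pass (41.7% passed, median 0.07). The 4 were BMP receptor genes and their relatives. Bmpr1a rose 1.29-fold (143 ± 6.16 to 184 ± 5.197 CPM), Bmpr2 1.37-fold and Acvr1 (ALK2) 1.22-fold. Acvrl1 (ALK1) rose 2.75-fold from a low level (0.352 ± 0.0936 to 0.967 ± 0.0651 CPM). Tgfbr2, the TGF-β type II receptor gene, chosen after its values were seen, had 0 counts in all 6 libraries, which allows up to 0.0452 CPM in the untreated group and 0.0441 CPM in the treated one (3 counts over the group, counting error only).

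Of the SMADs that carry the signal 1 passed. Smad3 read 8.35, 7.35 and 6.95 CPM untreated and 3.25, 4.03 and 3.797 CPM treated, a 2.05-fold fall (log2 change −1.04, SE 0.125, adjusted p = 0.000732) with no overlap. Smad2 (87.1 ± 1.75 and 90.6 ± 1.86 CPM) and Smad4 (94.5 ± 4.49 and 98.9 ± 5.26 CPM) did not pass (adjusted p = 0.325 and 0.442). Among proteins that handle SMADs, Zfyve9 (SARA, which presents SMAD2 and SMAD3 to the receptor) fell 1.33-fold and Nedd4l (a ubiquitin ligase for SMAD2 and SMAD3) 1.22-fold. Usp15 (a deubiquitinase of the pathway) rose 1.18-fold. Of the 20 measured SMAD proteins and cofactors 7 rose, 3 fell and 10 did not pass (50.0% passed).

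Tgfb1 rose 5.42-fold from 0.807, 0.761 and 0.506 CPM to 4.004, 3.55 and 3.797 CPM (log2 change 2.44, SE 0.186, adjusted p = 7.01e-05). Bmp1, a protease that processes procollagen and chordin, rose 1.34-fold. The other 5 of 7 measured ligand genes did not pass (28.6% of the list passed). Inhbb, which encodes the activin B subunit, had 1 count in each group and was not tested. Of the secreted antagonists Grem1 rose 2.87-fold (2.698 ± 0.232 to 7.76 ± 1.09 CPM) and Twsg1 1.23-fold. The other 5 of 7 antagonists did not pass (28.6% of the list passed). Grem1 was not apart from batch 1, where vector libraries ran from 1.63 to 8.27 CPM on the common scale. No read was counted in any of the 6 libraries (0 counts) for Fst, the gene of the activin-binding protein follistatin, with the same limits as Tgfbr2.

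Of 11 measured BMP target genes 2 rose, Smad6 and Bambi, 1 fell and 8 did not pass (27.3% passed). Id3, a dominant-negative helix-loop-helix factor, read 47.02, 50.7 and 76.9 CPM untreated and 30.6, 16.3 and 36.1 CPM treated, with log2 change −1.07, SE 0.288 and adjusted p = 0.0315. Its call was lost without untreated replicate 2 (−1.16) or 3 (−0.83) or activin B replicate 1 (−1.16). Id1 read 3.19, 3.85 and 8.61 CPM untreated and 3.21, 0.995 and 3.65 CPM treated, overlapping, and did not pass (adjusted p = 0.209). Both were higher in the vector libraries of batch 1 on the common scale, at 94.1 to 188 CPM for Id3 and 21.8 to 32.4 CPM for Id1.

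The 12 largest rises, taken among genes with an established symbol that passed with non-overlapping groups and at least 20 counts on average in the higher group, encode proteins of unlike function. Prr5l, whose product binds mTOR complex 2, read 0.242, 0.457 and 0.276 CPM untreated and 18.9, 18.7 and 20.7 CPM treated, 59.98-fold (log2 change 5.91, SE 0.166, adjusted p = 7.14e-07). Its untreated libraries stood near 0. Mybpc1, which encodes a muscle myosin-binding protein, rose 17.9-fold but stayed low (0.134 ± 0.0302 to 2.52 ± 0.1201 CPM). Fam210b, a mitochondrial membrane protein gene, moved from a substantial level, with 58.2, 58.4 and 55.7 CPM untreated and 581, 586 and 602 CPM treated. Its 10.3-fold rise had the smallest adjusted p of the genes named here (1.06e-08; log2 change 3.36, SE 0.0408). Several others encode surface and matrix proteins. Jam2, a junctional adhesion molecule, rose 13.8-fold from 3.95, 4.21 and 3.91 CPM to 54.8, 54.5 and 57.8 CPM. Spon2, a secreted matrix protein, rose 11.5-fold (4.05 ± 0.274 to 46.6 ± 2.78 CPM) and Lamb1, the laminin beta 1 chain, 10.4-fold (1.202 ± 0.254 to 12.5 ± 0.386 CPM). Cdh17, an intestinal cadherin, rose 11.9-fold. Piezo1, a mechanosensitive cation channel, rose 10.1-fold (1.296 ± 0.0895 to 13.1 ± 2.54 CPM), and Tmc7, a transmembrane channel-like protein gene, 10.7-fold (2.79 ± 0.553 to 29.97 ± 1.58 CPM). Igfbpl1, of the insulin-like growth factor binding protein family, rose 12.3-fold. The remaining members of the 12, Tph1 and Ppy, are given with the monoamine and hormone genes.

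The 12 largest falls, taken by the same criteria, were mostly in genes under 12 CPM. Ros1, a receptor tyrosine kinase gene, read 2.82, 4.31 and 3.45 CPM untreated and 0.278, 0.433 and 0.405 CPM treated, a 9.41-fold fall (log2 change −3.23, SE 0.254, adjusted p = 8.02e-05). Lcp2, an adaptor of immune receptor signalling, fell 5.99-fold (3.11 ± 0.583 to 0.504 ± 0.148 CPM). The homeobox gene Gbx2 fell 5.34-fold (6.18 ± 1.02 to 1.16 ± 0.371 CPM) and the T-box gene Tbx15 4.21-fold. The pair with the highest CPM, not scaled by exon length, were Pdyn and Chl1. Pdyn encodes the precursor of the opioid peptide dynorphin and Chl1 a neural adhesion molecule of the L1 family. Per kb of exon, untreated cells held 44.9 ± 4.68 CPM of Pdyn and 4.93 ± 0.12 CPM of Chl1. On that scale Pdyn was still the highest of the 12, but Chl1 stood below Wfdc16. Pdyn read 126, 134 and 111 CPM untreated and 27.4, 28.7 and 32.5 CPM treated, a 4.2-fold fall (log2 change −2.07, SE 0.0875, adjusted p = 3.63e-06). Chl1 read 56.8, 59.1 and 58.1 CPM untreated and 12.01, 15.5 and 14.5 CPM treated, a 4.15-fold fall. On the common scale Pdyn ran from 74.2 to 241 CPM and Chl1 from 19.5 to 29.01 CPM in the vector libraries of batch 1, in each case above the activin B libraries. Lfng, a glycosyltransferase that modifies Notch, fell 4.29-fold (11.8 ± 1.09 to 2.75 ± 0.187 CPM). Insl5, an insulin-like peptide gene, Krt71, Wfdc16, Pabpn1l and Rasgef1c fell between 4.17-fold (Rasgef1c) and 5.74-fold (Insl5), and each of these 5 stood under 12 CPM in every library. Krt71 was not apart from the vector libraries of batch 1 (0.178 to 0.599 CPM).

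A pseudogene and a copy of a ribosomal protein gene read high in only some of the activin B libraries. Gm10182, chosen after its values were seen, read 0.807, 0.203 and 0.0921 CPM untreated and 119, 0.216 and 0.506 CPM with activin B, and did not pass (log2 change 6.67, adjusted p = 0.0814). Rpl34-ps1, also chosen so, passed with overlapping groups (0.645, 0.558 and 0.552 CPM untreated against 0.476, 66.2 and 11.5 CPM treated). Reads of such copies may be shared with their parent genes, so their values are uncertain.

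Of 10 measured hormone genes 8 fell, 1 rose and 1 did not pass (90.0% passed). Their median log2 change was −0.52. Ins2 read 18810, 18010 and 17440 CPM untreated and 13500, 12880 and 12460 CPM treated, a 1.397-fold fall (log2 change −0.48, SE 0.0425, adjusted p = 0.000145), and Ins1 fell 1.29-fold (4772 ± 176 to 3691 ± 249 CPM). Both groups stood above the vector libraries of batch 1, where Ins2 ran from 6073 to 10970 CPM on the common scale. Glucagon (Gcg) read 112, 111 and 104 CPM untreated and 28.7, 28.2 and 36.5 CPM treated, a 3.51-fold fall (log2 change −1.81, SE 0.09398, adjusted p = 9.26e-06). The treated libraries also stood below every vector library of batch 1 (83.7 to 129 CPM). Npy, the neuropeptide Y gene, fell 1.96-fold from 1666 ± 75.99 to 848 ± 26.9 CPM and the gastrin gene Gast 3.25-fold from 3.44 ± 0.104 to 1.07 ± 0.347 CPM. Iapp, which encodes islet amyloid polypeptide and is secreted with insulin, read 4455 ± 28.8 and 4484 ± 67.9 CPM and did not pass (log2 change 0.0092, adjusted p = 0.874). Ppy, the pancreatic polypeptide gene, rose 14.6-fold but from 0.0807, 0.152 and 0.0921 CPM to only 1.86, 1.47 and 1.52 CPM. In bulk RNA, fewer cells that hold a transcript and less of it per cell cannot be told apart.

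Of 20 measured beta cell transcription factors 3 rose, 1 fell and 16 did not pass (with the block 6 rose and 4 fell). Pax4, a transcription factor of beta cell formation, read 20.9, 21.5 and 19.98 CPM untreated and 109.6, 108 and 108 CPM treated, a 5.21-fold rise (log2 change 2.38, SE 0.0437, adjusted p = 9.02e-08). Myt1 and St18, related zinc-finger genes of endocrine cells, rose 1.64-fold and 1.22-fold. Pdx1, the activator of insulin transcription, fell 1.41-fold from 480.2, 498 and 567 CPM to 354, 353 and 388 CPM. On the common scale it ran from 308 to 356 CPM in batch 1, nearer to the treated libraries than to the untreated ones. Mafa, chosen after its values were seen, read 47.8, 42.6 and 133 CPM untreated, 1 library standing far above the others, and 39.6, 31.2 and 54.7 CPM treated. It did not pass (adjusted p = 0.218), though with the replicate number as a block it did (log2 change −0.69, adjusted p = 0.0279).

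**Figure D3:**
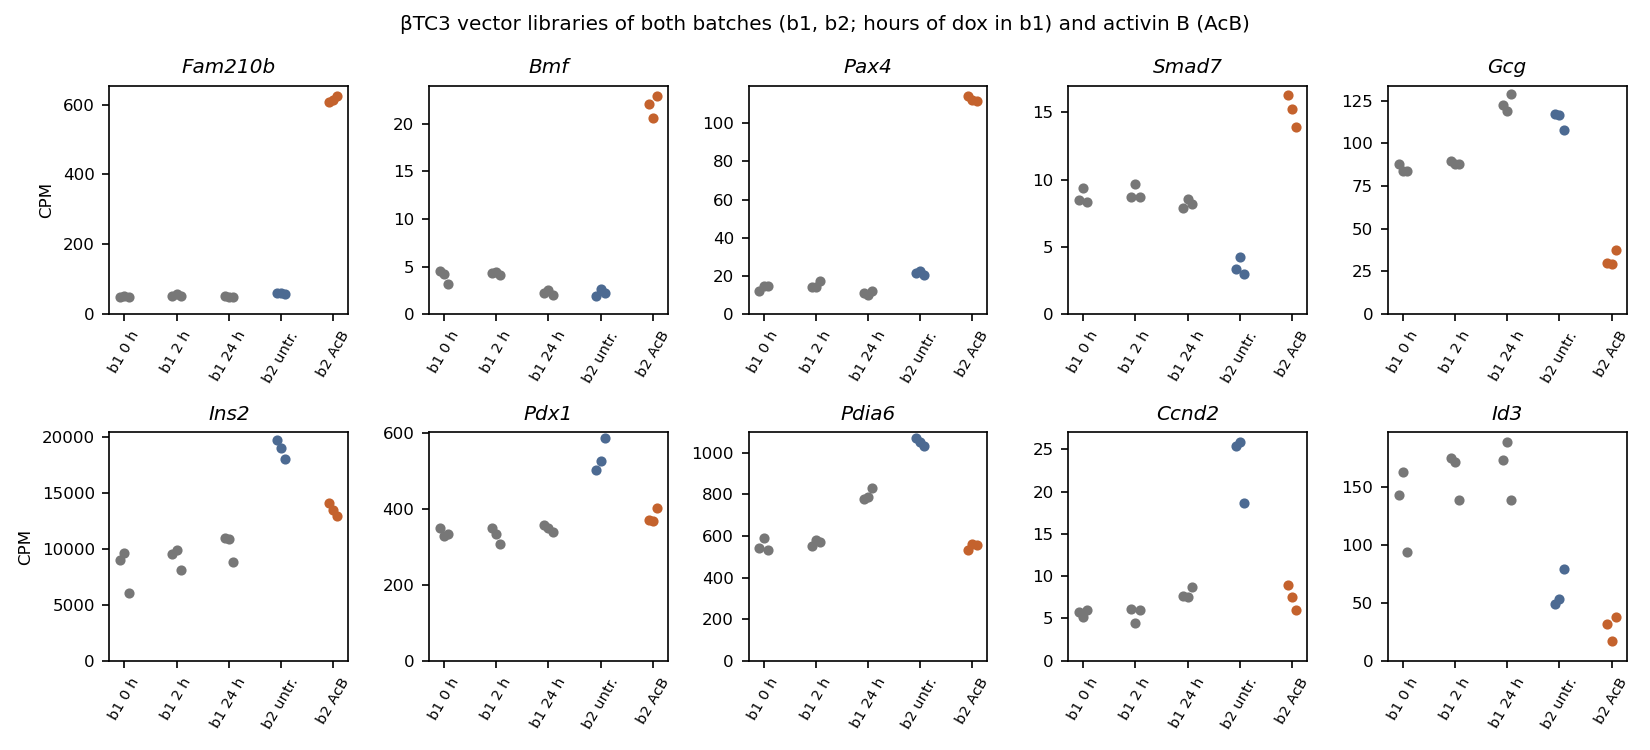
CPM (y axis, from 0, scaled over the 21 βTC3 libraries) of 10 genes in vector libraries of batch 1 at 0, 2 and 24 h of doxycycline (grey), untreated libraries of batch 2 (blue) and activin B libraries of batch 2 (orange). For Fam210b, Bmf, Pax4, Smad7 and Gcg the activin B libraries lie beyond all others, while for Pdx1, Pdia6 and Ccnd2 the untreated libraries of batch 2 are the ones that stand apart. For Ins2 both groups of batch 2 lie above batch 1.

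Genes of glucose sensing and insulin secretion moved both ways. Of the 19 measured genes of glucose sensing and the KATP channel 7 rose and 7 fell (73.7% passed). Glp1r, the receptor of the incretin GLP-1, rose 1.45-fold (261 ± 5.39 to 378 ± 23.6 CPM) and Cacna1d, an L-type calcium channel subunit, 1.39-fold. Gpd2, the mitochondrial glycerol phosphate dehydrogenase, read 346, 345 and 314 CPM untreated and 166, 184 and 167 CPM treated, a 1.94-fold fall. The granins split as well. Chga (chromogranin A) rose 1.64-fold (4334 ± 241 to 7118 ± 199.6 CPM) and Scg3 1.78-fold (609 ± 14.3 to 1082 ± 43 CPM), while Scg2 fell 1.78-fold from 2374, 2441 and 2411 CPM to 1381, 1301 and 1386 CPM. The prohormone-processing enzymes carboxypeptidase E (Cpe) and prohormone convertase 1 (Pcsk1) fell 1.697-fold and 1.61-fold. In that list 2 of 15 rose, 6 fell and 7 did not pass, so that 53.3% passed (with the block 4 rose). The median was −0.076. Of 27 measured genes of vesicle exocytosis 5 rose, 5 fell and 17 did not pass, so that 37.0% passed (with the block 8 fell). The syntaxin gene Stx3 rose 1.86-fold, the complexin gene Cplx2 1.84-fold and the calcium sensor gene Syt7 1.48-fold, and Syt4 fell 1.35-fold.

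Of 9 measured genes of serotonin and monoamine metabolism 4 rose, 4 fell and 1 did not pass (88.9% passed). The median was −0.20. Tph1, the rate-limiting enzyme of serotonin synthesis outside neurons, read 0.726, 0.913 and 0.875 CPM untreated and 12.2, 12.6 and 13.1 CPM treated, a 15.1-fold rise (log2 change 3.91, SE 0.118, adjusted p = 9.45e-07). Ddc, the decarboxylase that completes serotonin and dopamine synthesis, rose 3.22-fold (9.202 ± 0.405 to 29.6 ± 0.858 CPM), and Th, tyrosine hydroxylase, 1.43-fold. Maob, a monoamine-degrading oxidase, fell 1.41-fold, and the serotonin receptor gene Htr1d fell 3.09-fold (3.93 ± 0.267 to 1.26 ± 0.285 CPM), to the level of batch 1 (1.18 to 1.802 CPM). Tph2, the neuronal counterpart of Tph1, fell 2.48-fold and stood near 1 CPM.

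Most genes of protein folding and the unfolded protein response in the endoplasmic reticulum fell. The list holds chaperones and folding enzymes together with sensors, transcription factors and degradation genes such as Atf6, Xbp1 and Sel1l. Of its 23 genes, all measured, 20 fell, 0 rose and 3 did not pass (87.0% passed). The median log2 change was −0.43. Hspa5 (BiP), the main chaperone of the lumen, read 1761, 1770 and 1788 CPM untreated and 1139, 1128 and 1163 CPM treated, a 1.55-fold fall (log2 change −0.63, SE 0.0328, adjusted p = 9.07e-06). Pdia6, a protein disulfide isomerase, read 1022, 998 and 1001 CPM untreated and 511, 536 and 538 CPM treated, a 1.91-fold fall (log2 change −0.93). Sdf2l1, Creld2 and Dnajb11, which are induced by unfolded proteins, fell 2.06-fold, 1.57-fold and 1.45-fold. On the common scale the untreated libraries of batch 2 were the high ones: Hspa5 stood at 1853 ± 11.3 CPM there and at 1061 ± 54.6 CPM in batch 1 at 0 h, and Pdia6 at 1053 ± 17.95 against 556 ± 31.9 CPM. With activin B they stood at 1191 ± 13.6 and 550.0 ± 14.9 CPM. The insulin genes, whose products are folded in this compartment, were lower in the same libraries, and their part in the result was not tested. Of 23 measured genes of the integrated stress response 8 fell and 1 rose (39.1% passed). Asns (asparagine synthetase) fell 1.29-fold and Aldh18a1 (proline synthesis) 1.2-fold.

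**Figure D4:**
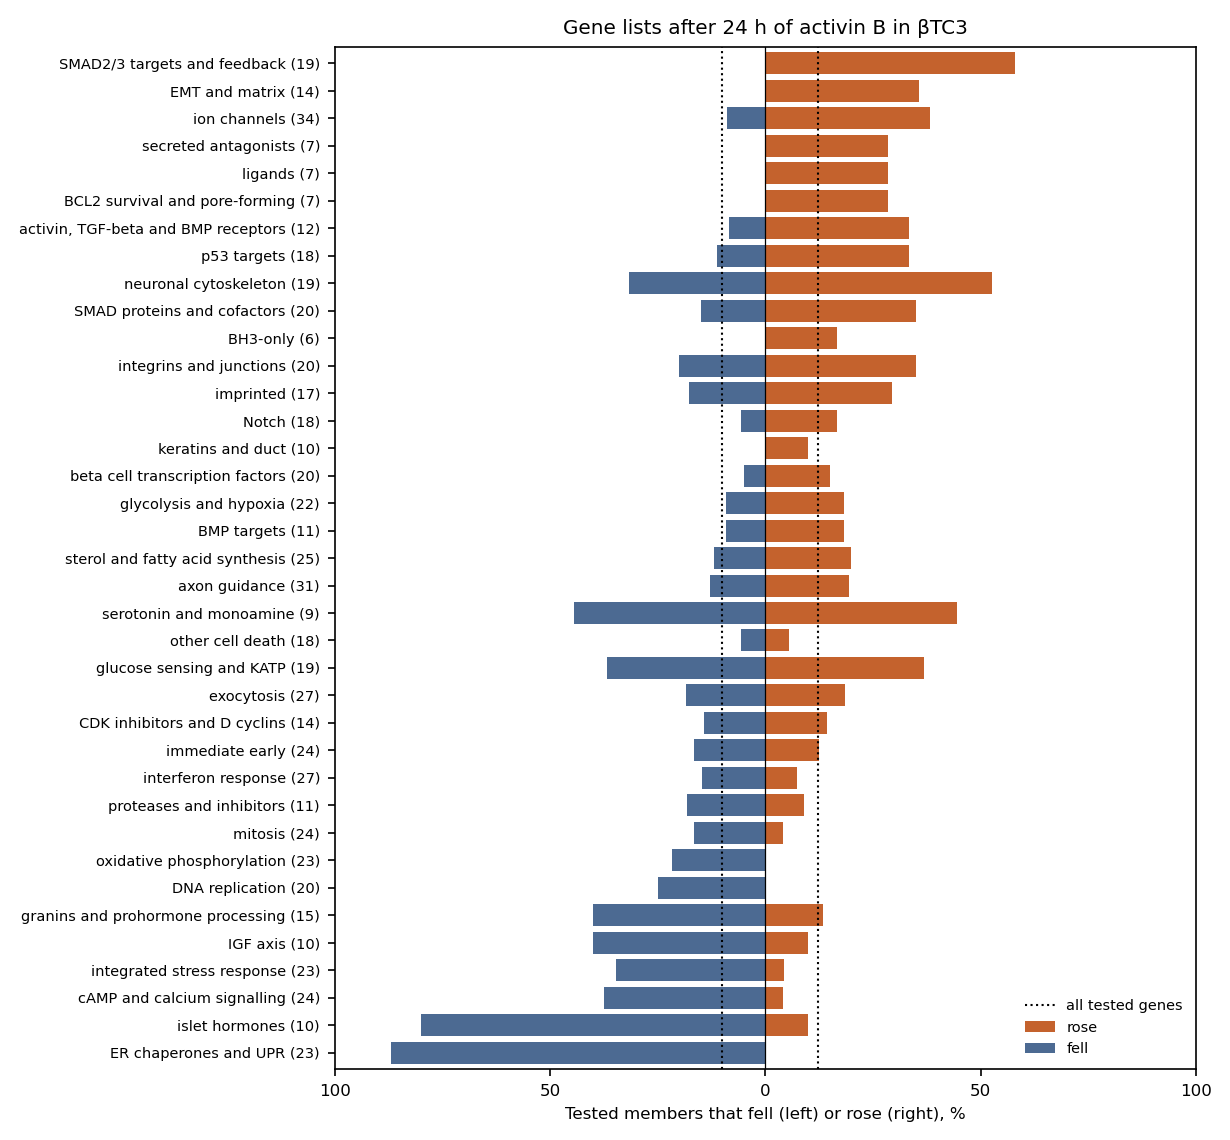
Share of the tested members of each gene list (number tested in brackets) that rose (orange, to the right) or fell (blue, to the left) with activin B, with dotted lines at the shares over all tested genes (12.3% and 9.97%). The lists of endoplasmic reticulum chaperones and unfolded protein response and of islet hormones reach furthest to the left and the SMAD2/3 list furthest to the right, and members of a list are not independent of one another.

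Of the measured cell death genes 1 of 6 BH3-only genes (16.7%), 2 of 7 BCL2 survival and pore-forming genes (28.6%) and 2 of 18 others (11.1%) passed, beside 22.2% of all tested genes. Bmf, a BH3-only activator of apoptosis, read 1.85, 2.48 and 2.16 CPM untreated and 21.2, 19.7 and 22.1 CPM treated, a 9.72-fold rise (log2 change 3.28, SE 0.115, adjusted p = 1.86e-06). It was the BH3-only gene that passed. Bcl2l11 (Bim) read 39.6 ± 1.75 and 41.7 ± 1.42 CPM (adjusted p = 0.386), and Bcl2 (0.891 ± 0.207 and 0.757 ± 0.252 CPM) did not pass either (adjusted p = 0.621). Of the 7 survival and pore-forming BCL2 genes, Bax and Bak1 passed with rises of 1.13-fold and 1.18-fold. Both calls were lost in each fit that left out 1 library except untreated replicate 3, with log2 changes down to 0.14 for Bax and 0.20 for Bak1, in DESeq2 (adjusted p = 0.0559 and 0.0574) and in the fit of all 21 βTC3 libraries (adjusted p = 0.514 and 0.404). Dapk1, a death-associated kinase, rose 1.46-fold (46.8 ± 1.52 to 68.2 ± 2.02 CPM). Of 18 measured p53 targets (3 more of the list were too low to test) 6 rose and 2 fell (44.4% passed). Trp53inp1 rose 2.11-fold and the antiproliferative gene Btg2 1.95-fold, while Perp fell 1.91-fold.

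Of 14 CDK inhibitor and D cyclin genes 2 rose and 2 fell, so that 28.6% passed (with the block 4 rose and 5 fell). Cdkn2b (p15), a classical TGF-β target, read 11.8, 10.4 and 13.03 CPM untreated and 15.6, 15.2 and 17.2 CPM treated, a 1.36-fold rise (log2 change 0.45, SE 0.0985, adjusted p = 0.0143). Cdkn1a (p21) rose 1.17-fold, a call lost without activin B replicate 1 or 2 (log2 change 0.21 in both). The D-type cyclin gene Ccnd2 read 24.3, 24.6 and 18.1 CPM untreated and 8.603, 7.23 and 5.82 CPM treated, a 3.08-fold fall (adjusted p = 0.000321). The vector libraries of batch 1 already stood at 4.498 to 8.73 CPM, so that here again the untreated libraries of batch 2 were the ones apart. Mki67, the proliferation marker, read 1892 ± 52.96 and 1892 ± 51.8 CPM and did not pass (log2 change −0.0004, adjusted p = 0.996). Of the DNA replication genes 5 of 20 fell and 0 rose, and of the mitosis genes 4 of 24 fell and 1 rose (with the block 9 and 2). The shares that passed in either direction were 25.0% and 20.8%, beside 22.2% of all tested genes.

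Genes of neuronal type changed in both directions. Of 19 measured genes of the neuronal cytoskeleton 10 rose, 6 fell and 3 did not pass (84.2% passed). Dpysl3, which acts in growth cones, read 33.03, 36.9 and 30.6 CPM untreated and 109.7, 116 and 109.5 CPM treated, a 3.33-fold rise. Gap43, a growth cone protein gene, rose 2.35-fold and the neuronal tubulin gene Tubb3 1.51-fold, while the neurofilament genes Nefl and Nefm fell 1.96-fold and 1.66-fold. In the axon guidance list 6 of 31 rose and 4 fell (32.3% passed). The ephrin receptor gene Epha5 rose 2.51-fold, whereas Robo2, the Slit receptor, fell 1.96-fold (168 ± 8.95 to 85.7 ± 5.64 CPM) and its ligand gene Slit1 1.41-fold. Of 34 measured ion channel genes 13 rose and 3 fell (47.1% passed), with a median of 0.15 (with the block 6 fell). Cacna1g, a T-type calcium channel, rose 7.73-fold from a low level (0.425 ± 0.151 to 3.31 ± 0.168 CPM), and the potassium channel gene Kcnj6 2.204-fold.

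In the Notch list 3 of 18 rose and 1, Lfng, fell. Of that list 22.2% passed, as of all tested genes. The ligand gene Dll4 rose 4.43-fold (0.947 ± 0.111 to 4.22 ± 0.195 CPM) and the target genes Hes6 and Hes1 2.25-fold and 2.85-fold. Hes1 was not apart from batch 1 (3.54 to 7.56 CPM). Of 32 epithelial-mesenchymal and matrix genes 18, among them Vim, Fn1 and Snai1, were too low to test. Of the other 14, 5 rose and 0 fell, so that 35.7% passed (with the block 1 fell). S100a4 rose 2.44-fold and Zeb1, a repressor of epithelial genes, 1.202-fold. Krt7, a duct keratin, rose 3.44-fold (8.55, 8.27 and 8.15 CPM untreated, 27.2, 28.9 and 29.9 CPM treated), the 1 of 10 keratin and duct genes to pass (with the block 2 rose). In the integrin and junction list 7 of 20 rose and 4 fell (55.0% passed). The integrin gene Itga6 rose 2.05-fold, to 127 ± 4.09 CPM. The vector libraries of batch 1 stood at 98.7 to 130.5 CPM on the common scale, a scaling other than that of the 127 CPM.

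Among metabolic genes Acly, the ATP citrate lyase that supplies acetyl-CoA for lipid synthesis, stood out by level. It read 3233, 3255 and 3060 CPM untreated and 5771, 5796 and 5676 CPM treated, a 1.81-fold rise (log2 change 0.85, SE 0.0363, adjusted p = 3.75e-06). Elovl6, a fatty acid elongase, fell 1.64-fold. Of the 25 sterol and fatty acid genes 5 rose, 3 fell and 17 did not pass (32.0% passed). Hexokinase 1 (Hk1) fell 1.63-fold and Pgk1, phosphoglycerate kinase, rose 1.53-fold, though vector cells of batch 1 held 461 to 1038 CPM of Pgk1. Of 23 oxidative phosphorylation genes 5 fell and 0 rose, 21.7% beside 22.2% of all tested genes (with the block 9 fell and 1 rose). In the cAMP and calcium signalling list 9 of 24 fell and 1 rose, so that 41.7% passed (with the block 2 rose). The phosphodiesterase genes Pde1c and Pde4b fell 1.64-fold and 1.39-fold, and Rgs4, a regulator of G protein signalling, rose 2.01-fold. In the IGF axis Igf1r rose 1.95-fold and Igf2 fell 1.16-fold (7512 ± 277 to 6462 ± 122.8 CPM). Of its 10 measured genes 1 rose and 4 fell, so that 50.0% passed (with the block 2 rose). Of the imprinted genes 5 of 17 rose and 3 fell, so that 47.1% passed (with the block 6 fell). Zim1 and Peg3, neighbours of 1 imprinted cluster, rose 1.79-fold and 1.36-fold, and the neuronatin gene Nnat fell 1.74-fold (2085 ± 116 to 1201 ± 100.3 CPM). The interferon list had 2 of 27 rises and 4 falls, and 22.2% of it passed, as of all tested genes. Oasl2 rose 1.48-fold, yet its treated libraries stayed below batch 1 (14.5 to 19.6 CPM).

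The ligand response was set beside that of ALK7-CA at 24 h, which shares no library with it and for which 2134 of 15801 genes passed (13.5%), 1268 higher (8.02%) and 866 lower (5.48%). Of genes tested in both, 1769 rose with activin B and 1196 with ALK7-CA, and 844 rose with both, which is 47.7% of the activin B rises and 70.6% of the ALK7-CA rises. The share of all tested genes that rose with ALK7-CA was 8.3%. Of 1439 and 769 falls 496 were shared (34.5% and 64.5%, against a share of 5.34%), and 3 genes rose with activin B but fell with ALK7-CA and 11 the reverse. Of 403 genes that changed 2-fold or more with activin B, 392 had the same sign with ALK7-CA. Across 14410 genes the log2 changes had a Pearson correlation of 0.673 and a Spearman correlation of 0.601, a description, since genes are not independent replicates. Several of the induced genes did not pass the test of the difference. For Skil the log2 difference (activin B minus ALK7-CA) was 0.17 with a 95% interval from −0.088 to 0.43 (adjusted p = 0.783). For Smad7 it was 0.58, from 0.28 to 0.87 (adjusted p = 0.108), though it passed with the replicate number as a block (adjusted p = 0.0408), in DESeq2 and without untreated replicate 2 (0.72). Prr5l differed by 0.53, from 0.011 to 1.04, and Mybpc1 by −1.30, from −2.29 to −0.31. Neither passed the test of the difference (adjusted p = 0.745 and 0.569). The intervals here and for AJ below rest on the SE and a normal distribution, unlike the quasi-likelihood test. They are too narrow for so few libraries, and an interval without 0 is not a passed test. For Bmf the difference was −0.63, from −0.92 to −0.35 (adjusted p = 0.0625), and it passed without untreated replicate 1 (−0.75).

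The test of the difference itself passed for 207 of 15258 genes (1.36%), 42 higher with activin B (0.275%) and 165 lower (1.08%). With the replicate number as a block 811 passed, 307 higher and 504 lower. Without single libraries the 42 became 14 (activin B replicate 1), 17 (replicate 2), 22 (replicate 3), 15 (untreated replicate 1) and 24 (untreated replicate 2), and all 207 became 133 without activin B replicate 2. Of the 165, 37 fell with activin B and did not pass with ALK7-CA, 40 fell with both, 40 rose with both and 35 rose with ALK7-CA and did not pass with activin B. The rise with activin B was the smaller for several induced genes. Jam2 had log2 changes of 3.79 and 4.89 (difference −1.10, SE 0.127, adjusted p = 0.00162), and Spon2 of 3.53 and 4.59 (adjusted p of the difference = 0.000459). Pmepa1 differed by −0.84, Sox4 by −1.30 and Fam210b by −0.33 (adjusted p = 0.0104, 0.00014 and 0.0129). S100a6, a calcium-binding protein gene, had changes of 1.76 and 4.28 (difference −2.52, adjusted p = 0.000216). Several falls, in contrast, were larger with the ligand. Gcg changed by −1.81 with activin B and −0.52 with ALK7-CA (difference −1.28, SE 0.117, adjusted p = 0.000376). Ros1 differed by −2.22, Chl1 by −1.51 and Pdyn by −1.08 (adjusted p = 0.00178, 0.000376 and 0.000459). Ccnd2 fell with activin B and did not pass with ALK7-CA (difference −1.49, adjusted p = 0.00584), its control levels being those given above. Itga6 and Oasl2 were among the 42, with differences of 0.54 and 0.80 (adjusted p = 0.00369 and 0.00379), and their untreated libraries stood below batch 1. The contrasts differ in batch, doxycycline and control cells as well as in how the receptor is engaged, and these cannot be told apart.

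**Figure D5:**
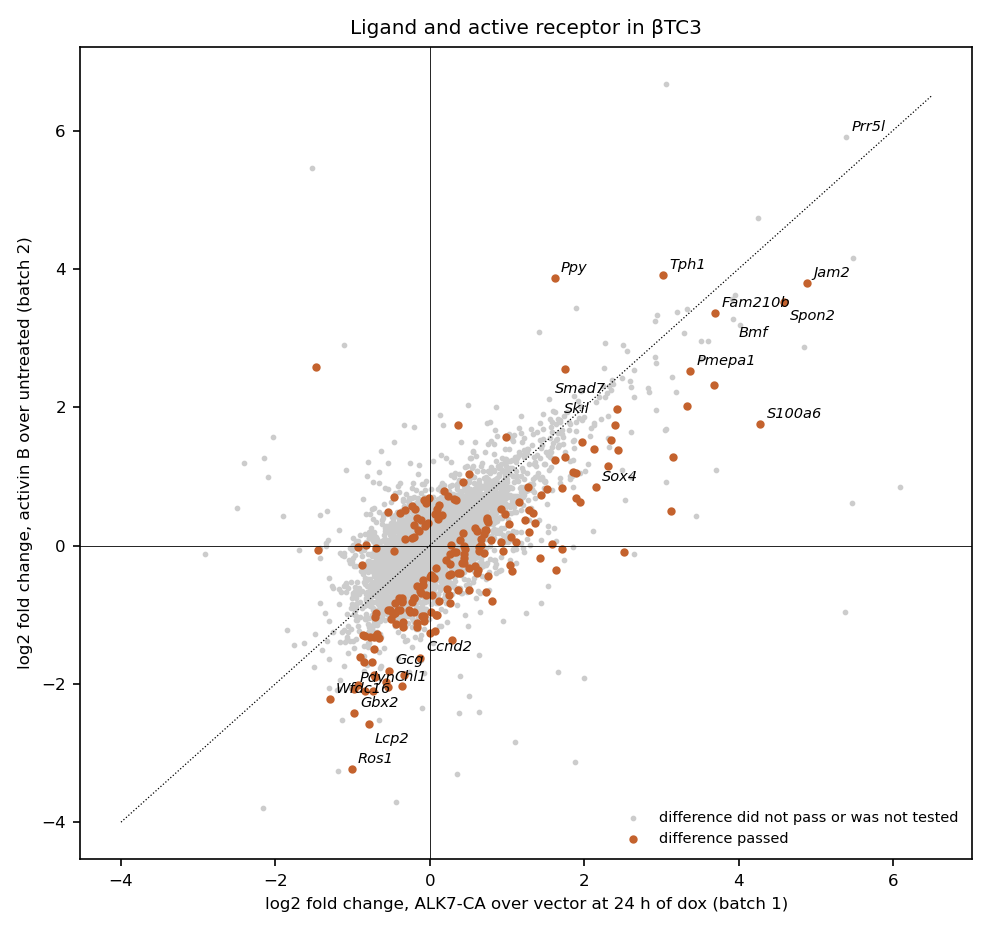
Log2 fold change with activin B (y axis) against that with ALK7-CA at 24 h (x axis) in βTC3 for genes tested in both, with the dotted line at equal change and genes whose difference passed in orange. Jam2, Spon2, Sox4 and S100a6 lie below it among the rises, and Gcg, Ros1, Pdyn and Chl1 lie below it among the falls.

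The response was also set beside that of AJ cells to the same ligand. There 3348 of 14872 genes passed (22.5%), 1727 higher (11.6%) and 1621 lower (10.9%). Of genes tested in both lines 1685 rose in βTC3 and 1606 in AJ, and 761 rose in both (45.2% and 47.4%, where 11.8% of all genes rose in AJ). Of 1332 and 1498 falls 437 were shared (32.8% and 29.2%). Both shares were above the 10.9% of genes tested in AJ that fell there. Another 60 genes rose in βTC3 and fell in AJ, which is 3.56% of the βTC3 rises. A further 79 fell in βTC3 and rose in AJ, which is 5.93% of the βTC3 falls. Opposite changes were thus rarer than falls (10.9%) and rises (11.6%) among all genes tested in AJ. Of 299 genes that changed 2-fold or more in βTC3 254 had the same sign in AJ, and the Pearson correlation across 13621 genes was 0.383. The test of the difference passed for 1408 of 15444 genes (9.12%), 696 higher in βTC3 (4.51%) and 712 lower (4.61%). For Skil and Smad7 the difference did not pass. Skil differed by −0.19 (95% interval from −0.43 to 0.060) and Smad7 by −0.35 (from −0.72 to 0.016). Pmepa1 differed by −0.50 (from −0.82 to −0.19; adjusted p = 0.0775), which passed with the replicate number as a block (−0.51, adjusted p = 0.0447) and in DESeq2. Tmc7 had nearly equal changes of 3.42 and 3.33 (difference from −0.35 to 0.52).

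Other genes differed widely between the lines. Ldlrad4 rose by 1.87 in βTC3 and 5.52 in AJ (difference −3.66, SE 0.438, adjusted p = 0.00021), from an untreated level of 5.202 ± 0.1099 CPM in βTC3 and 0.175 ± 0.198 CPM in AJ. Sox4 and Fam210b also rose by less in βTC3 (differences −1.53 and −1.10, adjusted p = 6.88e-06 and 2.38e-05). Bambi, Bmf, Pax4 and Jam2 rose by more, with differences of 0.75, 1.17, 0.65 and 2.01 (adjusted p from 4.81e-05 for Bambi to 0.00254 for Pax4). Piezo1 rose in βTC3 and did not pass in AJ, where it read 11.8 ± 1.398 and 12.2 ± 1.32 CPM (difference 3.28, adjusted p = 3.27e-06). The receptor gene Acvr1c, whose small fall in βTC3 is given above, fell in AJ with a log2 change of −1.53, from 10.5 ± 0.337 to 3.61 ± 0.403 CPM (difference 1.27, adjusted p = 5.54e-05). Pdyn and Chl1 fell in βTC3 and did not pass in AJ (differences −2.48 and −2.08, adjusted p = 0.000734 and 4.18e-06). Th and Hk1 moved in opposite directions. Th changed by 0.52 in βTC3 and −0.69 in AJ (difference 1.21, adjusted p = 1.17e-06), and Hk1 by −0.70 and 0.44 (difference −1.15, adjusted p = 3.39e-06). Scg3 rose by more in βTC3 (difference 0.66, adjusted p = 1.48e-05). Of the 23 genes of the endoplasmic reticulum list 18 differed between the lines. In AJ 2 of them rose and 10 fell, with a median of −0.08 beside −0.43 in βTC3, and Hspa5 changed by −0.63 in βTC3 and −0.21 in AJ (difference −0.43, SE 0.0483, adjusted p = 0.000131). These differences compare the lines as sequenced, each line standing for itself.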

How the data were processed

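Counts per gene for 48 libraries were used as deposited by the authors. Per the submitters' processing notes, genome build mm10 was used, with featureCounts 1.4.4, HISAT2, edgeR, cutadapt 1.4.2 and bcl2fastq 2.17 among the tools. Neither the strand setting of the counting nor its annotation release was stated. Per the labels' protocols, 500 ng of total RNA went into stranded polyA libraries. All 48 columns equalled the single-sample files, 0 columns belonged to no sample, and the authors' normalized table was not used.

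Groups came from the labels. The comparison of 3 with 3 libraries was fitted with edgeR 4.0.16 (R 4.3.3): TMM scaling, filterByExpr (minimum count 10, total 15, proportion 0.7) and the quasi-likelihood test, with Benjamini-Hochberg adjustment over all tested genes at 0.05. Differences between effects were tested as interactions. Their 95% intervals take the SE with a normal distribution and are narrower than the quasi-likelihood test implies. On simulated data 38%, 70%, 92% and 100% of genes changed 1.25-, 1.5-, 2- and 4-fold were found. There were 14 false calls in a test of 14316 genes. At each fold size 50 genes were changed, all with a mean count of at least 50. These shares therefore do not cover genes with lower counts, and far fewer genes were changed than passed in the data. Results were recomputed with RLE scaling, DESeq2 1.42.0, no filter, a stricter filter (1 CPM in 3 libraries), a replicate block and each library left out, and the activin B effect in βTC3 also in 1 fit of 21 βTC3 libraries.

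Same-numbered libraries deviated together over 8809 genes with a mean log2 CPM above 4 (r = 0.109, 0.293 and 0.431), so blocked values are printed where they change a call, while the reported fit has no block. Untreated replicate 1 correlated more with activin B replicate 2 (0.177) than with its own number. Over 13320 genes above 0 the values were 0.0576, 0.249 and 0.299, of which the first is too low to read the numbers as pairs.

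Named genes were Acvr1c, the 12 largest rises and falls with non-overlapping groups and a mean count of at least 20, up to 5 members per list by adjusted p, and a set of pathway and islet genes. The comparison, members and lists were chosen with earlier results of these data known.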

Additional observations from a re-analysis of the deposited data

Results flagged for a closer look

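The effect of activin B differed between the lines for 1408 genes by edgeR's test of the difference. Among the genes named above, the log2 difference (βTC3 minus AJ) was above 0 for Jam2 (2.01), Piezo1 (3.28), Bambi (0.75), Bmf (1.17), Acvr1c (1.27), Pax4 (0.65), Th (1.21) and Scg3 (0.66). It was below 0 for Fam210b (−1.10), Ldlrad4 (−3.66), Sox4 (−1.53), Hk1 (−1.15), Hspa5 (−0.43), Pdyn (−2.48) and Chl1 (−2.08). Each passed the test of the difference over all genes.

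The effect of activin B differed from that of ALK7-CA in βTC3 for 207 genes by the same test. The log2 difference (activin B minus ALK7-CA) was below 0 for Jam2 (−1.10), Spon2 (−1.05), Fam210b (−0.33), Pmepa1 (−0.84), Sox4 (−1.30), S100a6 (−2.52), Ros1 (−2.22), Pdyn (−1.08), Chl1 (−1.51), Gcg (−1.28) and Ccnd2 (−1.49). It was above 0 for Itga6 (0.54) and Oasl2 (0.80). The contrasts compared here come from different batches, and batch and effect cannot be told apart.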

How the results depend on the processing

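The activin B effect was called for 2773 genes by DESeq2, 3146 with RLE scaling, 3072 with no filter, 3135 with the stricter filter, 4280 with the replicate block and 2515 in the fit of 21 libraries, and none of the genes called in the reported fit changed sign in any of these or with a library left out. With 1 library left out, 2174 to 3046 genes were called, 1227 to 1613 rose and 947 to 1433 fell. Of 136 called genes considered for naming, 131 stayed called with every library left out in turn. Under the other 6 alternatives 133 stayed called wherever they were tested. The stricter filter left some genes untested, and these were judged by the remaining alternatives. The difference from ALK7-CA moved most: DESeq2 called 327 (71 higher, 256 lower), the replicate block 811 (307 and 504), and with no filter 23 were higher. With 1 library left out, 133 to 188 were called and 14 to 28 were higher. The cause was not tested. Signs turned only among named values near 0 that did not pass. Iapp was 0 with RLE scaling and ran from −0.0029 to 0.018 with a library left out. Mki67 was 9e-04 with no filter and ran from −0.0222 to 0.0229. Acvr2a ran from −0.0224 to 0.0593, Acvr2b from −0.27 to 0.0466, and the difference of Tmc7 between lines from −0.0704 to 0.1766. With the replicate block Tgfbr1, chosen after its values were seen, passed (0.115, adjusted p = 0.0203), and beside the values given with the results the block changed no other call of a named gene. Depth limits genes under about 10 counts, which were not tested, and small folds.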
